A study of Mus musculus with 6 samples.

Results

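The endothelin genes were described here in RNA from the dorsal root ganglia of mouse embryos, which hold the cell bodies of sensory neurons and their glia. The genes were taken by symbol and comprised 2 receptors (Ednra, Ednrb), 3 ligands (Edn1, Edn2, Edn3) and 2 converting enzymes (Ece1, Ece2). They made up 7 of the 37086 genes measured, and 20 of their 22 annotated transcripts were in the files used. The RNA was a single total RNA preparation from ganglia of 18 pooled wild-type C57BL/6J embryos at 14.5 dpc (Theiler stage TS22), of unknown sex. High-volume libraries were made from that RNA in 9 µl with the HV version of the SMARTer Ultra Low Input RNA kit, and low-volume libraries from RNA in 1 µl with the SMARTer Ultra Low RNA Kit. Each volume was run at 3, 10 and 30 ng, with 1 library per combination, so volume and kit cannot be told apart. No animal was treated or mutant, and all 6 libraries repeat 1 RNA pool. Every SD, SE and p-value therefore measures technical spread. The libraries held 14160397 to 31524210 tags in the transcripts used, and the 3 ng library was the shallowest of each volume. Of 12 sensory neuron genes, all 12 had a mean level of 1 RPKM or more (tags per kilobase of exon, scaled to library depth). So did all 12 genes of fibroblasts and meninges, so this cut does not test the tissue label.

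Endothelins are short secreted peptides. They are cut from inactive precursors, the big endothelins, by membrane proteases called endothelin-converting enzymes, and act on receptors that couple to heterotrimeric G proteins. The type A receptor prefers endothelin-1 and endothelin-2, whereas the type B receptor binds all of the endothelins alike. In the embryo, endothelin-3 and the type B receptor are needed for neural crest cells that form pigment cells and the enteric nervous system, and the ganglia studied here also arise from the neural crest.

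The parts of the precursors that become the mature ligands are shown first, because the 3 ligand genes differed widely in tags although these stretches are much alike. Each line gives the 63 coding bases of the mature peptide and the codon after the bond that the converting enzyme cuts. All 3 were read 5′ to 3′ on the plus strand of GRCm38 from the GENCODE M21 transcripts and lie in coding exon 2, at chr13:42303649-42303714 for Edn1, chr4:120161951-120162016 for Edn2 and chr2:174761749-174761814 for Edn3. Capitals mark the 4 cysteine codons, whose residues form the disulfide bridges of the peptide.
Edn1: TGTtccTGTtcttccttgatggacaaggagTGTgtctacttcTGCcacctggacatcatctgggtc
Edn2: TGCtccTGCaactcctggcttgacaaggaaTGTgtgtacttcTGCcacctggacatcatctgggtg
Edn3: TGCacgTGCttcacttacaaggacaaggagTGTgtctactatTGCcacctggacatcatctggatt

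Over the 63 bases of the mature peptide, Edn1 and Edn2 were identical at 53 (84.1%), Edn1 and Edn3 at 50 (79.4%) and Edn2 and Edn3 at 48 (76.2%). The last codon, on the far side of the cut, is a valine codon in Edn1 and Edn2 and an isoleucine codon in Edn3. Exon 2 of Edn3 held 135 tags over the 6 libraries. Exon 2 of Edn1 held 7 tags and that of Edn2 held 2. Tags over the exon that codes for the mature peptide thus came mainly from Edn3.

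Ednrb, the type B receptor, was by far the most abundant endothelin gene. The gene is ENSMUSG00000022122, and the transcript used lies at chr14:103814626-103843696 on the minus strand (GRCm38), with 7 exons and 3989 bases of exon. Its level was 64.4, 65.1 and 52.0 RPKM in the high-volume libraries at 3, 10 and 30 ng, and 87.0, 81.2 and 73.5 RPKM in the low-volume libraries. The mean was 70.5 ± 12.7 RPKM (SD, n = 6), above 97.0% of all genes. Each low-volume library was higher than every high-volume library. On the same RPKM scale 15.0% of the 16120 genes tested were lower in high volume without overlap and 4.03% were higher without overlap, so the RPKM of many genes lay the same way. After TMM scaling, which adjusts for the makeup of each library, the shares were 7.28% lower and 8.1% higher, and Ednrb was still without overlap. No other endothelin gene lacked overlap on either scale.

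Ednra, the type A receptor, was expressed at a low level. Its transcript (ENSMUSG00000031616, chr8:77663031-77724436, minus strand, 8 exons) had 4.24, 2.17 and 2.78 RPKM in high volume and 7.24, 4.80 and 3.38 RPKM in low volume at 3, 10 and 30 ng. The mean was 4.10 ± 1.81 RPKM (SD, n = 6). The 3 ng library was the highest of each volume, and the volumes overlapped. The RPKM ratio of Ednrb to Ednra ranged from 12.0 to 30.1 over the libraries, with a median of 17.8. On log2(RPKM + 1), Ednrb exceeded Ednra by 3.86 ± 0.34 (SD, n = 6), in 6 of 6 libraries (two-sided exact sign-flip permutation test, p = 0.0312, the smallest that 6 libraries allow). Adjusted over the 5 pairs of endothelin genes tested, this p was 0.0521.

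**Figure D1:**
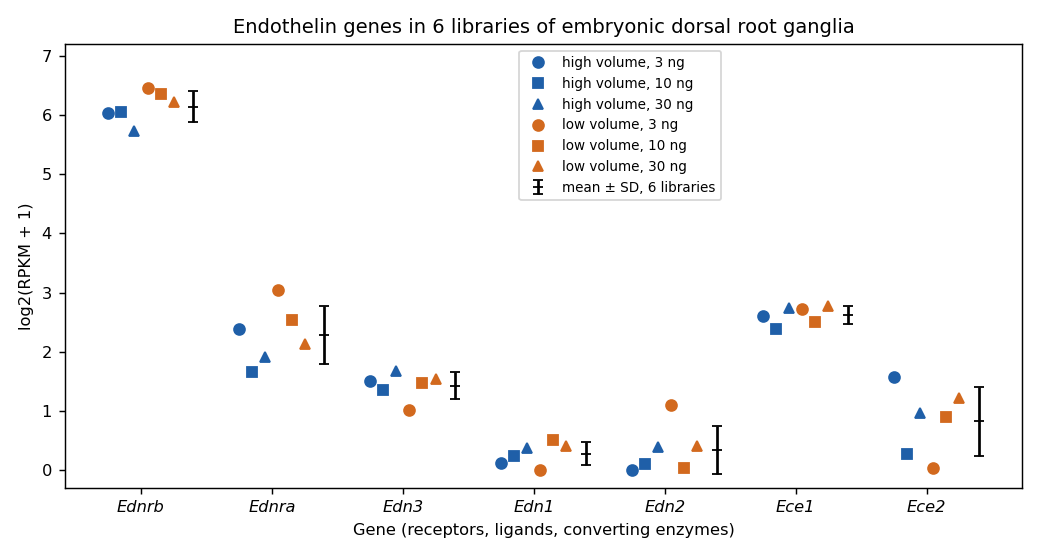
Level of each endothelin gene as log2(RPKM + 1) in every library. Circles, squares and triangles are 3, 10 and 30 ng, blue is high volume and orange low volume, and the bar beside each gene is the mean ± SD of 6 libraries. Ednrb stands above all others at a mean of 70.5 RPKM, while Edn2 and Ece2 spread most for their level.

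Among the ligands, Edn3 was the most abundant in 5 of 6 libraries. Its transcript (ENSMUSG00000027524, chr2:174760619-174784042, plus strand, 5 exons) had 1.82, 1.55 and 2.20 RPKM in high volume and 1.02, 1.77 and 1.92 RPKM in low volume at 3, 10 and 30 ng. The mean was 1.71 ± 0.398 RPKM (SD, n = 6), with the lowest value in the low-volume 3 ng library. The 3 Edn3 libraries of high volume overlapped with those of low volume.

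Edn1, the main endothelin of blood vessels, was close to the detection limit. Its transcript (ENSMUSG00000021367, chr13:42301270-42307989, plus strand) had 3, 11 and 19 tags in high volume and 0, 29 and 26 tags in low volume at 3, 10 and 30 ng. The count of 0 in the low-volume 3 ng library allows a level of up to 3 tags, and counting error is all that this limit covers. The mean was 0.217 ± 0.159 RPKM (SD, n = 6). Both 3 ng libraries were below each of the 10 and 30 ng libraries.

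Edn2 was as scarce, with a single high library. Its transcript (ENSMUSG00000028635, chr4:120161206-120167360, plus strand) had 0, 3 and 13 tags in high volume and 28, 1 and 16 tags in low volume at 3, 10 and 30 ng. This gave 1.13 RPKM in the low-volume 3 ng library and between 0 and 0.322 RPKM in the other 5, with a mean of 0.312 ± 0.426 RPKM (SD, n = 6). All 28 tags of that library lay in exon 5, the last exon, and exons 1 to 4 held none.

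Edn3 exceeded Edn1 by 1.15 ± 0.17 on log2(RPKM + 1), in 6 of 6 libraries (exact sign-flip permutation test, n = 6, p = 0.0312, adjusted over 5 pairs 0.0521). Edn3 exceeded Edn2 by 1.09 ± 0.58, in 5 of 6 libraries (exact p = 0.0625, adjusted 0.0781, n = 6). The exception was the low-volume 3 ng library. Edn1 and Edn2 differed by -0.07 ± 0.53 (Edn1 minus Edn2, exact p = 0.938, n = 6), and without that library the difference was 0.14. The pseudocount of 1 understates ratios between genes this low.

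The converting enzymes also differed in level. Ece1 (ENSMUSG00000057530, chr4:137862237-137965229, plus strand, 20 exons) had 5.04, 4.20 and 5.70 RPKM in high volume and 5.63, 4.65 and 5.86 RPKM in low volume at 3, 10 and 30 ng. Its mean was 5.18 ± 0.664 RPKM (SD, n = 6), and with a CV of 12.8% it was the steadiest of the endothelin genes. In each volume the 10 ng library was the lowest.

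Ece2 (ENSMUSG00000022842, chr16:20629828-20645915, plus strand, 19 exons) had 1.99, 0.209 and 0.945 RPKM in high volume and 0.019, 0.863 and 1.33 RPKM in low volume at 3, 10 and 30 ng. In tags these were 97, 17 and 84, and 1, 79 and 142. The 3 ng libraries thus held both the highest and the lowest level, and the CV was 81.2% around a mean of 0.892 ± 0.724 RPKM (SD, n = 6). Ece1 exceeded Ece2 by 1.79 ± 0.57 on log2(RPKM + 1), in 6 of 6 libraries (exact sign-flip permutation test, n = 6, p = 0.0312, adjusted 0.0521).

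Tags given to Ece2 cannot be assigned to it alone. Of its 3152 exon bases, 2932 (93.0%) also belong to Gm49333, a read-through gene that joins the neighbouring methyltransferase gene Eef1akmt4 to Ece2. Only exon 1, 220 bases or 6.98% of the length, is not shared, and it held 8 of 420 tags (1.90%). Eef1akmt4 itself was higher and steadier, at 9.04 ± 1.27 RPKM (SD, n = 6). Ednra shared 2.51% and Edn1 1.49% of its exon bases with another gene.

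None of the 5 pairs passed 0.05 after adjustment with the transcript of the largest count per gene. With the transcript of the largest mean RPKM instead, 4 of the 5 pairs passed (exact sign-flip permutation test, n = 6, adjusted p = 0.0391 each). Only Edn1 against Edn2 did not. Ednrb against Ednra, Edn3 against Edn1 and Ece1 against Ece2 already had the smallest possible unadjusted p. Their adjusted p fell only because Edn3 against Edn2 reached it too. The order of mean levels was Ednrb, Ece1, Ednra, Edn3, Ece2, Edn2 and Edn1. Between neighbours in that order, only Ednrb and Ece1 did not overlap in range (3.52 ± 0.31 on log2(RPKM + 1), SD, n = 6). Ece1 and Ednra differed by 0.34 ± 0.46, and Ednra was the higher in 2 of 6 libraries. Ednra was above Edn3 in 6 of 6 libraries (0.85 ± 0.66), although their ranges overlapped.

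Where tags fell along each transcript was then compared, since a level can rest on part of a transcript. Ednrb had tags in each of its 7 exons in each library, with at least 112 tags per exon. Its last exon is 64.6% of the exon length, 132 coding bases followed by 2443 bases of 3′ UTR, and took 67.3, 71.0 and 59.1% of the tags in high volume and 66.2, 66.01 and 64.3% in low volume. Ednrb was thus covered about in proportion to length. The exon length 5′ of the midpoint held 49.0 ± 4.74% of tags in high volume and 49.3 ± 0.80% in low volume (SD, n = 3 each, two-sided exact permutation test, p = 1.0). With 3 libraries against 3 such a test cannot go below 0.1.

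Ednrb has an upstream 5′ end in the annotation, and both ends carried tags. A second transcript, not used for the level, begins with an exon of 47 bases at chr14:103844127-103844173, which held 22, 51 and 61 tags in high volume and 21, 56 and 76 in low volume at 3, 10 and 30 ng. The 159 bases that only the transcript used has at its start, chr14:103843538-103843696, held 47, 51 and 72 tags and 41, 72 and 64 tags. Per base, the upstream exon had 1.58, 3.38 and 2.87 times the tags of the other stretch in high volume, and 1.73, 2.63 and 4.02 times in low volume. The ratio was above 1 in each library, and lowest at 3 ng in each volume. The 430 bases between held 0 to 7 tags per library. Tags near a 5′ end depend on where reverse transcription stopped, so these ratios are not shares of promoter use. How tags that cross the ends of such short stretches were counted is also not known.

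The sequence between these ends is shown because both starts flank it. It is the promoter that RefSeq places before Ednrb (GRCm38.p6, chr14:103843702-103843951, minus strand, printed 5′ to 3′, 250 bases up to the start).
Ednrb promoter: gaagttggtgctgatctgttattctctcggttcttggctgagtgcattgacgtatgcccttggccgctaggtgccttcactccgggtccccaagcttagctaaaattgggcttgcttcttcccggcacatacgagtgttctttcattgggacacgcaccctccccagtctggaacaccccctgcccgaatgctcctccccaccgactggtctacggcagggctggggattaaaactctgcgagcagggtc

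This stretch holds 11 CG dinucleotides, where the median promoter has 6, and its GC content is 56.8% against a median of 52.4%. On both strands, 3 motifs were searched over the 250 bases before the start, and none was found. They were the TATA box TATAAA, present in 12.4% of the 32851 RefSeq promoters, the GC box GGGCGG, in 32.7%, and the SOX core ACAAAG, in 16.5%. Letters alone do not show whether a factor binds. None of the endothelin promoters held TATAAA or ACAAAG in those 250 bases.

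Ednra was less evenly covered in the high-volume 3 ng library. There, exons 5, 6 and 7 held no tag, exon 4 held 1, and the last exon took 199 of 238 tags (83.6%). In the other 5 libraries each of the 8 exons had tags, and the last exon, 57.5% of the length, took 58.9 to 71.4%. Thinned to the depth of the 3 ng library, the other high-volume libraries would leave at most 0.0045 exons of Ednra without a tag if tags were independent, against the 3 seen. Tags per kilobase of intron were 1.15 ± 0.465% of those per kilobase of exon in high volume and 0.467 ± 0.190% in low volume (SD, n = 3 each, exact permutation test, p = 0.1, the smallest possible, adjusted over 6 such tests 0.6). The intron tags of Ednra sat in few places: in the high-volume 3 ng library all 27 were in intron 2.

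Edn3 showed a different gap in the low-volume 3 ng library. Exon 5, which holds 2127 bases of 3′ UTR and 69.3% of the length, had 2 of the 54 Edn3 tags there (3.70%), against 57.1 to 80.6% in the other 5 libraries. In the same library 24 of the 26 intron tags of Edn3 lay in intron 4, just before that exon. Intron 4 held at most 1 tag in any other library. Exons 2, 3 and 4 of Edn3, which code for most of the precursor, held 19, 13 and 13 tags there.

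**Figure D2:**
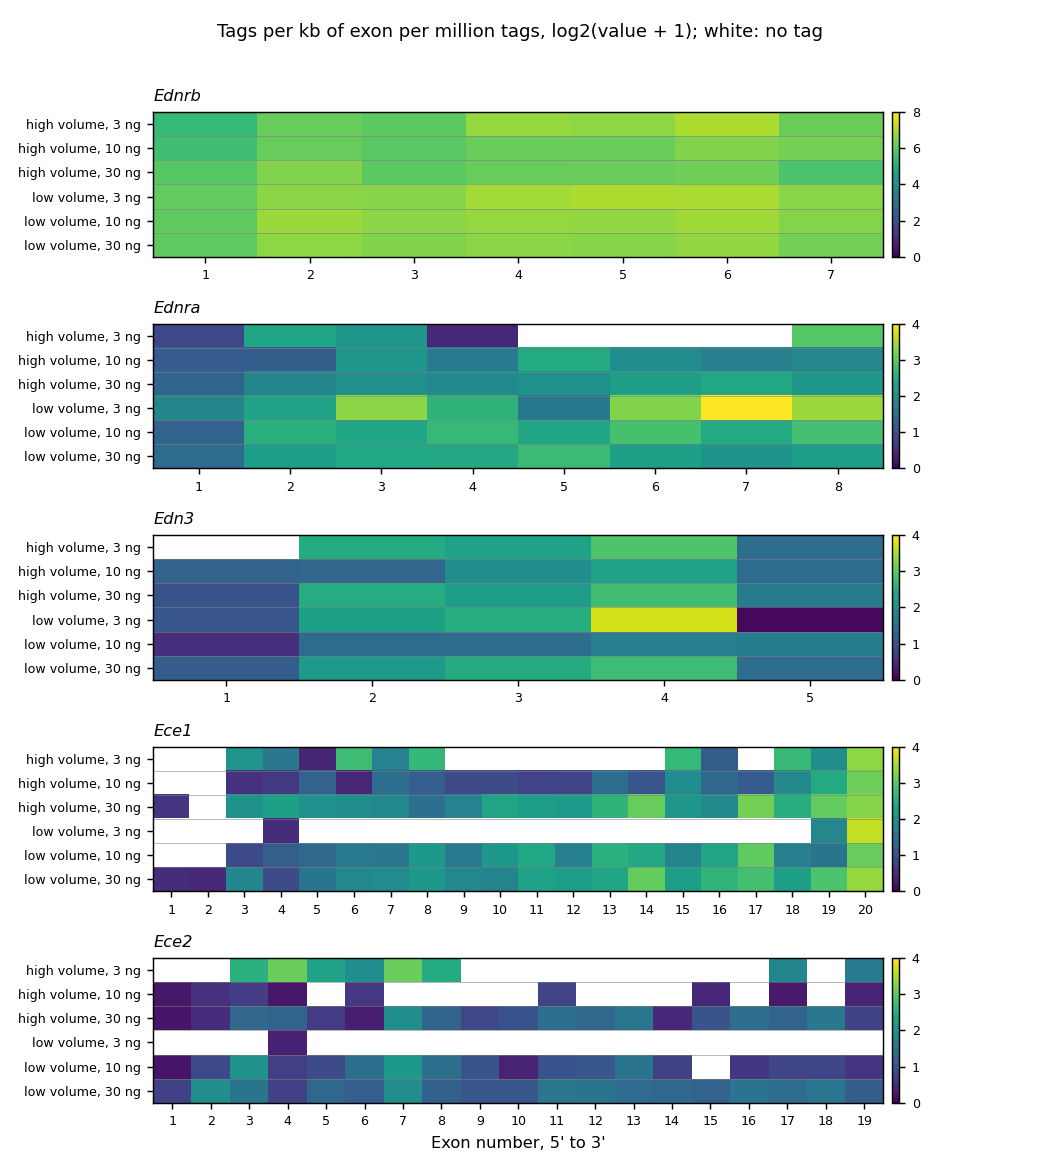
Tags per kilobase of exon, scaled to library depth, as log2(value + 1), for each exon (columns, 5′ to 3′) and library (rows); each gene has its own colour scale, and white marks exons with no tag. Ednrb is filled throughout, while Ece1 in the low-volume 3 ng library has 17 of 20 exons empty and Ece2 has 18 of 19.

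Ece1 kept its level in the low-volume 3 ng library although most of its exons held no tag there. Of its 20 exons, 9, 2 and 1 had no tag in high volume at 3, 10 and 30 ng, and 17, 2 and 0 had none in low volume. In the low-volume 3 ng library 454 of the 459 Ece1 tags lay in the last exon (98.9%), which is 51.9% of the length and mostly 3′ UTR (2326 of 2500 bases). In the other libraries that exon took 72.9 to 86.4% of tags. The Ece1 level of 5.63 RPKM there thus came nearly all from 1 exon.

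The number of empty exons of Ece1 was set beside that expected at the same depth. If tags were independent and thinned to the depth of the low-volume 3 ng library, the 10 and 30 ng libraries of low volume would leave 2.20 and 0.817 exons of Ece1 without a tag, against the 17 seen. For high volume the corresponding values were 3.89 and 1.31, against 9. Among 1494 genes with a mean of 2 to 10 RPKM and 15 or more exons, the median share of exons without a tag was 33.3% in the high-volume and 25.0% in the low-volume 3 ng library, and 0% at 10 and 30 ng. Ece1 had 45.0% and 85.0% at 3 ng. In low volume at 3 ng, 4.28% of those genes had a share as high as that of Ece1, and in high volume 34.3%.

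Ece2 had tags in each exon at 30 ng and in 1 exon in the low-volume 3 ng library. Of its 19 exons, 11, 10 and 0 had no tag in high volume at 3, 10 and 30 ng, and 18, 1 and 0 had none in low volume. Its 97 tags in the high-volume 3 ng library lay in 8 exons. Among 979 genes with a mean of 0.5 to 2 RPKM and 15 or more exons, the median share of empty exons was 73.7% and 72.7% in the 3 ng libraries, so many genes at the level of Ece2 were read in patches at 3 ng. In the low-volume 3 ng library 94.7% of the Ece2 exons were empty, and 10.2% of those genes had a share as high. In the high-volume 10 ng library 52.6% were empty, against a median of 15.8%, and 8.68% of those genes had a share as high. Of 1898 genes with a similar total, 10.3% had as large a share of their tags in 1 library as Ece2 (33.8%).

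**Figure D3:**
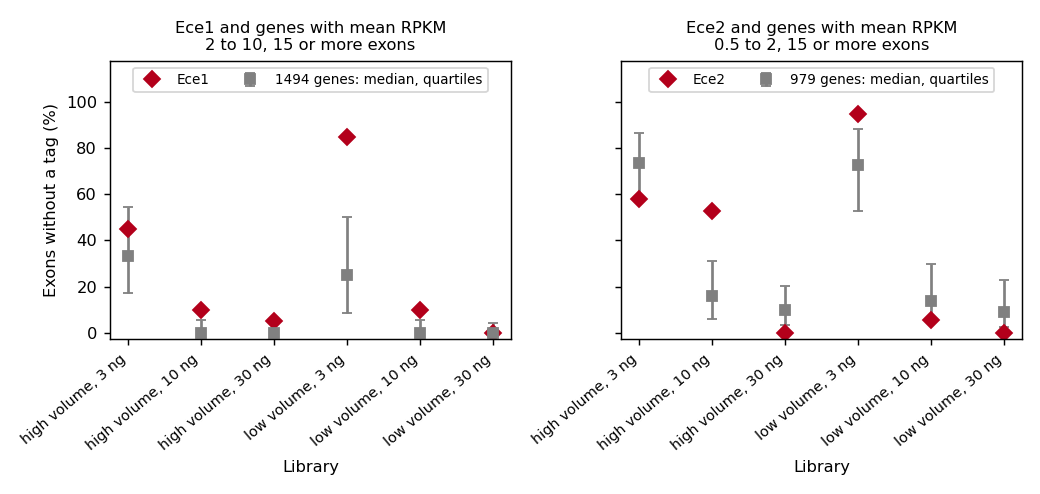
Percent of exons without a tag in each library for Ece1 (left) and Ece2 (right), as red diamonds, beside the median and quartiles of genes with 15 or more exons at a like level, in grey. Ece1 reaches 85.0% in the low-volume 3 ng library, where the median is 25.0%, and Ece2 reaches 94.7% there, where the median is 72.7%, and 52.6% in the high-volume 10 ng library, where it is 15.8%.

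The effect of volume was tested on the tag counts of all genes with edgeR, with log2 input as a covariate. All 7 endothelin genes passed the filter on low counts, and 0 of 7 passed an adjusted p of 0.05. Of the 16120 genes tested 1 passed (0.0062%). At an unadjusted p of 0.05, 1076 genes (6.67%) passed. Ednrb was the only endothelin gene among them: its log2 difference, high minus low volume, was -0.27 ± 0.10 (SE, edgeR, unadjusted p = 0.0242, adjusted p = 0.705). The other receptor had a difference of similar sign, with Ednra at -0.56 ± 0.27 (edgeR, adjusted p = 0.788). The median over all genes tested was 0.02.

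The ligands and Ece2 could not be placed on either side. The log2 difference was 0.42 ± 0.38 for Edn3, -0.15 ± 1.23 for Edn1, -1.71 ± 1.84 for Edn2 and 0.93 ± 1.45 for Ece2 (SE, edgeR, adjusted p 0.823 to 0.984). For Ece1 it was 0.04 ± 0.21 (edgeR, adjusted p = 0.974). The SEs of Edn1, Edn2 and Ece2 exceed 1 on the log2 scale, so even a large difference in these genes was not detectable in this fit.

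Without the 3 ng libraries the estimates became narrower. Of 16564 genes tested in the 10 and 30 ng libraries with edgeR, 278 passed (1.68%; 1.23% higher and 0.447% lower in high volume) and 2647 (16.0%) had an unadjusted p under 0.05. Again 0 of the 7 endothelin genes passed. Ednrb had a log2 difference of -0.28 ± 0.08 (SE, unadjusted p = 0.00630, adjusted p = 0.126) and Ednra one of -0.58 ± 0.23 (unadjusted p = 0.0277, adjusted p = 0.244). For Ece2 the value was -1.02 ± 0.41 (edgeR, unadjusted p = 0.0304, adjusted p = 0.255), the opposite sign to that from all 6 libraries. Edn2 also changed sign, to 0.52 ± 0.93. This fit had 1 residual degree of freedom. With input as a block in all 6 libraries, edgeR called 0 genes (0.0%), 1163 (7.21%) had an unadjusted p under 0.05, and Ednrb had a difference of -0.27 ± 0.07 (adjusted p = 0.549).

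**Figure D4:**
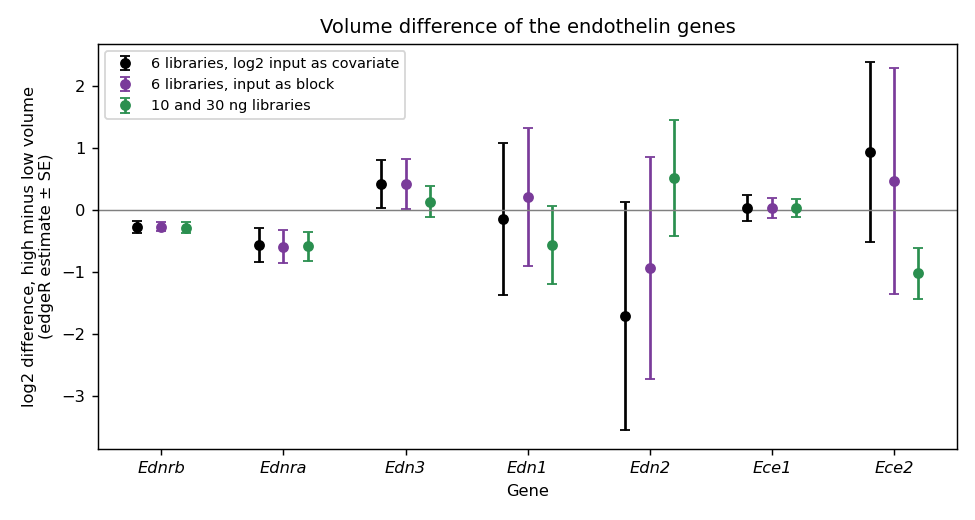
Log2 difference, high minus low volume, of each endothelin gene with its SE from edgeR, in 3 fits: all libraries with log2 input as covariate (black), with input as block (purple), and the 10 and 30 ng libraries alone (green). Ednrb stays near -0.27 with a small SE, while Edn1, Edn2 and Ece2 cross 0 between fits.

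For the amount of RNA, 0 of 16120 genes passed (0.0%) with edgeR, 1253 (7.77%) had an unadjusted p under 0.05, and DESeq2 called 59. No endothelin gene passed in either tool. The slope of Ednra, the log2 change per doubling of input, was -0.26 ± 0.10 (SE, edgeR, unadjusted p = 0.0329, adjusted p = 0.6253), and that of Ednrb was -0.08 ± 0.04. Edn1 had a slope of 0.77 ± 0.52, Edn3 of 0.17 ± 0.14, Ece2 of 0.19 ± 0.50, Edn2 of 0.04 ± 0.54 and Ece1 of 0.03 ± 0.07. In the 10 and 30 ng libraries alone, a fit added after the data were seen, the slope was -0.05 for Ednra, -0.14 for Ednrb, 0.07 for Edn1, 1.67 for Edn2, 0.21 for Edn3, 0.26 for Ece1 and 0.82 for Ece2 (edgeR, adjusted p 0.331 to 0.975).

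Whether the volume difference itself changed with input was tested by the interaction, for which 0 genes passed (0.0%) and 1348 (8.36%) had an unadjusted p under 0.05 with edgeR. Ece2 had an interaction of -1.86 ± 0.79 (SE, edgeR, unadjusted p = 0.0482, adjusted p = 0.583), and Edn2 one of 2.11 ± 1.14 (adjusted p = 0.592). In both genes the 3 ng libraries lay far apart, at 97 and 1 tags for Ece2 and 0 and 28 tags for Edn2. For the other 5 endothelin genes the interaction lay within 1 SE of 0.

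Other genes of endothelin processing and signalling were read from a list of 44, all of which were in the files, 32 of them at a mean of 1 RPKM or more. The best expressed transduce the signal inside the cell: Mapk3, which encodes the kinase ERK1, had 131 ± 17.6 RPKM (SD, n = 6), the small GTPase Rhoa 131 ± 8.96, and Rgs4, which shortens G protein signals, 100.2 ± 8.79. Among G protein alpha subunits, Gnas had 96.2, Gnai2 55.7, Gnai3 29.2, Gnaq 26.9 and Gna11 26.5 RPKM. Of the proteases, Ctsa, which can degrade endothelin, had 41.4 RPKM. Prkcd, a protein kinase C, had 21.4 RPKM. These are the highest of the list, whose median was 4.45 RPKM, close to the 4.10 RPKM of Ednra. Among the phospholipases that act below the G proteins, Plcb3 had 4.93, Plcb4 1.06, Plcb1 0.501 and Plcb2 0.047 RPKM. The calcium channels Itpr1, Itpr2 and Itpr3 had 0.575, 0.460 and 1.06 RPKM.

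In the 6 libraries 0 of the 40 pathway genes tested passed for volume (edgeR), with a median log2 difference of -0.06 and 16 of 40 above 0, against a median of 0.02 over all genes. In the 10 and 30 ng libraries 2 of 43 passed, both higher in high volume, where 1.23% of all genes were called higher: Gnai2, an inhibitory G protein subunit, at 0.60 ± 0.09 (SE, edgeR, adjusted p = 0.0123), and Map2k2, the kinase MEK2, at 0.78 ± 0.14 (adjusted p = 0.0211).

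A second list held 18 genes known, with Ednrb and Edn3, from inherited defects of enteric ganglia or pigment cells, and 12 of them had 1 RPKM or more. The adhesion molecule L1cam had 16.4, Nrg1 14.9, the transcription factor Sox10 13.1 and the receptor Ret 10.1 RPKM, all below Ednrb. Gdnf, the ligand of Ret, had 0.0648 RPKM. For volume 0 of 14 tested passed with edgeR (median log2 difference -0.19, 5 of 14 above 0). In the 10 and 30 ng libraries 1 of 15 passed, where 0.447% of all genes were called lower: Kitl, a growth factor for pigment cells, at -0.75 ± 0.15 (SE, edgeR, adjusted p = 0.0308).

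All libraries were made from the same RNA of whole ganglia, so the volumes do not differ in the cells sampled. How far a level reflects the number of cells of a type or the RNA per cell cannot be told. Of 12 marker genes of glia and Schwann cell precursors 11 had 1 RPKM or more, and their summed level was 1074 to 1172 RPKM in high volume and 1189 to 1233 in low volume, without overlap. That sum is mostly Fabp7 (869 RPKM), and after TMM scaling the median log2 difference of these genes was 0.20, with 8 of 12 above 0, against -0.27 for Ednrb. The summed RPKM of the 12 sensory neuron markers did not overlap either, at 4946 to 5668 and 5814 to 6493. That sum is mostly Tubb3 (2961 RPKM) and Stmn2 (1292 RPKM), and 6 of the 12 were above 0 after TMM scaling. The sums of melanoblast, of fibroblast and meninges, and of enteric and sympathetic neuron markers, given below, were also lower in high volume without overlap. On the same RPKM scale 15.0% of the 16120 genes tested lay this way, so it is not particular to glia or sensory neurons. Of the 12 endothelial markers 9 had 1 RPKM or more (87.9 to 109.1 in high, 101.4 to 116.3 in low volume), as had 5 of 12 markers of pericytes and smooth muscle (34.5 to 39.9 and 28.3 to 38.0). In the 10 and 30 ng libraries 1 of 12 glial markers passed with edgeR, Ngfr, higher in high volume at 1.40 (adjusted p = 0.0016). Of the sensory neuron markers 2 of 12 passed, Prph higher at 0.33 (adjusted p = 0.0413) and Pou4f1 lower at -0.45 (adjusted p = 0.0303). Of all genes in that fit 1.23% were called higher and 0.447% lower. The part of any of these cell types in the levels of Ednrb and Ednra was not tested. Of the 10 melanoblast markers only Kit reached 1 RPKM, Mlana was at 0 in each library, and Dct had a mean of 0.0402 RPKM. Their summed level was 5.56 to 11.3 RPKM in high and 12.4 to 14.9 in low volume, and Kit alone had a mean of 9.06 RPKM. Summed levels in high and low volume were 1.94 to 2.55 and 2.69 to 3.67 RPKM for enteric and sympathetic neurons (1 of 8 markers at 1 RPKM or more), 555 to 602 and 604 to 626 for fibroblasts and meninges (12 of 12), 148 to 169 and 158 to 175 for macrophages (8 of 8), and 70.1 to 88.3 and 80.4 to 91.9 for skeletal muscle and cartilage (5 of 8).

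Genes whose levels followed a receptor most closely were listed as a description. Over the 6 libraries, which share 1 RNA and differ in depth, the log2 CPM of Ednrb was most like that of Atp6ap2 (Pearson r = 0.997), Sod2 (0.979), Pnrc2 (0.977), Cd200 (0.976) and Ebf1 (0.974), among 4354 genes with a mean of 10 RPKM or more. Ednra was most like Cxxc1 (0.992), Nde1 (0.9805) and Tmem250-ps (0.975), and Ece1 most like Snrnp25 (0.984), Ptgds (0.974) and Ndufa12 (0.974). These values carry no test.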

How the data were processed

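Of the tools in the submitters' processing notes, CASAVA 1.8 and the aligners TopHat2 2.0.8 and Bowtie2 2.1.0 were listed with build GRCm38.p1; for the counting program, strand use and annotation no source used here gives a name. The authors deposited tag counts per transcript, exon and intron, and the authors' RPKM. Per gene, the transcript with most tags was used (GENCODE M21, 89664 of 93615 transcripts matched). Counts were tested with edgeR 4.0.16 (R 4.3.3, quasi-likelihood, TMM, filterByExpr, volume plus centred log2 input, 3 residual degrees of freedom, Benjamini-Hochberg over all genes, threshold 0.05) and DESeq2 1.42.0. Only the edgeR volume fit was checked on simulated data. Levels were compared on log2(RPKM + 1) with exact permutation tests (SciPy 1.17.1). Replicates 1, 2 and 3 are the 10, 3 and 30 ng libraries. Libraries of the same input deviated together (correlations 0.132, 0.111 and 0.126 at 3, 10 and 30 ng; of unlike inputs, high 10 with low 30 ng reached 0.103), so input also served as a block. Genes and lists were chosen with earlier results of these data known. Named were all endothelin genes, the 10 highest pathway genes, pathway genes past the threshold in any fit, and the 5, 3 and 3 genes most like Ednrb, Ednra and Ece1 (r of log2 CPM, prior count 2; symbols of Gm plus digits, ending in Rik, or mitochondrial left out); other list genes were picked after their values were seen. Exons expected to be empty at 3 ng depth assume independent tags, and tags carry no molecular identifiers.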

Additional observations from a re-analysis of the deposited data

Results flagged for a closer look

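The Edn2 level of 1.132 RPKM in the low-volume 3 ng library stood far from the other 5 libraries: its gap to the next library was 0.716 of the whole range, above Dixon's 95% critical value for 6 libraries. It rests on 28 tags, all in exon 5. This library held 45.9% of all Edn2 tags, and 19.4% of 1575 genes with a similar total had as large a share in 1 library. For normally distributed levels chance alone sets apart about 1 in 20 such groups, and 7 genes were examined. That rate need not hold for counts as low as those of Edn2.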

How the results depend on the processing

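No endothelin gene passed the threshold for volume or input under any alternative run, though in DESeq2 only Ednrb (adjusted p = 0.132) and Ece1 had an adjusted p for volume. Ednrb, Ednra and Edn3 kept their sign under each for volume. Genes called for volume numbered 1, against 11 without a filter, 166 with DESeq2, 278 in the 10 and 30 ng libraries and 0 to 2 with 1 library left out. For input they numbered 0, against 2 without a filter, 59 with DESeq2 and 1 in the 10 and 30 ng libraries (added after the data were seen). With input as replicate block 0 genes passed for volume, no endothelin gene changed its call, and Edn1 turned to 0.21. Scaling to total counts shifted the median log2 difference from 0.02 to -0.10, and Ece1 to -0.085. In the 10 and 30 ng libraries Edn2 turned to 0.52 and Ece2 to -1.02, and Edn1 minus Edn2 to 0.15. With each library left out in turn, the volume difference ranged from -0.78 to 1.30 for Edn1, -3.51 to 0.64 for Edn2 (positive only without the low-volume 3 ng library), -0.082 to 0.15 for Ece1 and -1.07 to 2.40 for Ece2 (negative without either 3 ng library). The input slope ranged from -0.36 to 1.77 for Edn2, -0.012 to 0.073 for Ece1 and -0.24 to 1.47 for Ece2. The difference in 5′ share (high minus low, percentage points) ranged from -2.84 to 1.79 for Ednrb, -6.71 to 2.23 for Ednra and -4.65 to 6.24 for Ece1, and Edn1 minus Edn2 from -0.17 to 0.14. With the exons of all transcripts the Ednrb intron difference was 0.0052. With the transcript of the largest mean RPKM, log2 differences were 3.90 for Ednrb minus Ednra, 1.68 for Edn3 minus Edn1, 1.62 for Edn3 minus Edn2 and 1.68 for Ece1 minus Ece2. The cause of these changes was not tested. Edn1 and Edn2 rest on 88 and 61 tags in all. The SE of Ece2 for volume was 1.45 in all 6 libraries and 0.41 in the 10 and 30 ng libraries.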
